A study of Mus musculus with 21 samples.

Results

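The RNA of 10 genes for matrix proteases and their inhibitors was followed in the mouse uterus at 3 ages: the inhibitors Timp1, Timp2 and Timp3, the matrix metalloproteinases Mmp2, Mmp11, Mmp14 and Mmp15, and the proteases Adamts1, Adamts2 and Adamts5. The genes were taken by symbol, and all 10 were among the 12791 genes measured. Uteri of healthy wild type C57BL/6J mice, which are inbred, were compared at 3 ages. These were 5 weeks (5w, 7 libraries), 8 weeks (8w, 7 libraries) and old animals (aged, 6 libraries). Mice of every group, the young ones included, had been injected with pregnant mare serum gonadotropin (PMSG, 5 or 7.5 units), a hormone that stimulates the ovaries, 48 hours before dissection, and which animal had which dose is not stated in the labels. The libraries form an earlier set (replicates 1 and 2 of each age, aged mice of 60 to 75 weeks) and a later set (the other replicates, aged mice of 79 weeks). A part of each uterine horn went into the RNA, and the labels do not say that replicates are separate animals, so p-values measure the spread between these libraries.

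Metalloproteinases are enzymes that use a zinc ion to cut proteins of the extracellular matrix, and most are made as inactive proenzymes. TIMP proteins bind the active site of these enzymes and block it, so the same tissue makes the enzyme and its brake. ADAMTS proteases are a related secreted family whose members cut proteoglycans or trim procollagens. In the uterus, this system takes part in the rebuilding of the endometrium over the estrous cycle, around implantation and after birth.

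The genes that were called lie on several chromosomes (GRCm38, GENCODE release 21, all protein-coding). Timp1 lies on X, 20870166 to 20874735 on the plus strand, Timp2 on chromosome 11, 118301069 to 118355740 on the minus strand, and Timp3 on chromosome 10, 86300372 to 86349506 on the plus strand. Mmp11 lies on chromosome 10, 75923222 to 75936496 on the minus strand, Mmp15 on chromosome 8, 95352268 to 95375080 on the plus strand, and Adamts2 on chromosome 11, 50602084 to 50807573 on the plus strand. Promoters are shown for Timp1, which fell, and for Mmp11 and Mmp15, which rose against 5 weeks, since these calls held with each library left out in turn. The sequences are from RefSeq (GRCm38.p6), upstream of the start and outside annotated exons of the gene, 5′ to 3′ on the strand of the gene, with capitals for the GC box GGGCGG and the CCAAT box on either strand:
Timp1 promoter, chrX:20869916-20870165, plus strand: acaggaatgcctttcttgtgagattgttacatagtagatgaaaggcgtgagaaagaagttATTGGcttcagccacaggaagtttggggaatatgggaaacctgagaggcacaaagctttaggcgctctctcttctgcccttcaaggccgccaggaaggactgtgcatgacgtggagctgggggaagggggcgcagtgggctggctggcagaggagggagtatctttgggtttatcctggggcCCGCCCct
Mmp11 promoter, chr10:75932503-75932752, minus strand: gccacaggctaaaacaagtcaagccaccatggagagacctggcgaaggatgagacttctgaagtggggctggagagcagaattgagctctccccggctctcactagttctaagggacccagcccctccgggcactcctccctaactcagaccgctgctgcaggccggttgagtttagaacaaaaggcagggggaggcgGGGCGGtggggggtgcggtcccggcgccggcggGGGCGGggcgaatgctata
Mmp15 promoter, chr8:95352046-95352267, plus strand: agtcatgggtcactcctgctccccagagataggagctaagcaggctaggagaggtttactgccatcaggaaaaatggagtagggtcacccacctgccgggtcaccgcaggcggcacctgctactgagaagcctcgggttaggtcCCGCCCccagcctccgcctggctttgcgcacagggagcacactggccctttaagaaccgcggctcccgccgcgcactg
The Mmp11 window lies inside the annotated span of the gene, upstream of the RefSeq start. Promoter windows of 300 bases (250 before and 50 after the start) were found for 8 of the 10 genes, not for Mmp2 and Adamts5. A GC box was in all 8 windows and in 35.7% of 32851 windows of the same length. The 8 windows held 8 to 41 CpG each, against a median of 7 over all windows. The windows were not matched for base content, so these shares show no excess particular to these genes. A CCAAT box was in those of Timp1, Timp2 and Mmp14 (37.4% of all), and a TATA box (TATAAA) in that of Adamts1 (13.6% of all). The AP-1 site TGANTCA (7.81% of all) and the full estrogen response element (GGTCA and TGACC with 3 bases between, 0.07% of all), searched on both strands, were in none of the 8, which says only that these letters are not in these windows.

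Per library, 12204573 to 14448283 reads were assigned to genes in the earlier set (6 libraries) and 19100690 to 30689439 in the later set (14 libraries). The sets differed in the level of 7512 genes (58.7%), and differences between them in instrument or RNA kit and in the age of the old mice cannot be told apart. No gene in the tables fell below 10 reads in any library, so the presence of stromal, smooth muscle and epithelial markers is set by how the tables were made and is no check of the tissue label. The summed levels were 2445 to 8734 CPM for 12 stromal, 1710 to 28983 CPM for 10 smooth muscle and 1911 to 10333 CPM for 12 epithelial markers. Of 7 adipocyte markers 3 were measured (Lipe, Fabp4 and Pparg; not Adipoq, Plin1, Cidec and Lep), with a sum of 42.0 to 1293 CPM in aged, 19.8 to 767 CPM in 8-week and 30.0 to 699 CPM in 5-week libraries. Of 8 ovary markers 3 were measured (Inha, Inhbb and Foxl2; not Amh, Cyp19a1, Fshr, Zp3 and Cyp11a1), with a sum of 23.9 to 125 CPM, 20.8 to 489 CPM and 17.2 to 457 CPM in the same order. The part of these tissues in the results was not tested. Columns were assigned to samples by their headers. The columns of 5w replicate 3 and 8w replicate 3 lay in files attached to samples of another age group, so counts are also given without them. The columns of aged replicates 2 and 5 lay in files attached to aged samples of the other set.

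Aged uteri had less RNA of the inhibitor gene Timp1 than young uteri and more of the inhibitor gene Timp2 and of the protease gene Mmp11. Against 8 weeks, 3 of the 10 genes were called, with Timp2 and Mmp11 higher and Timp1 lower, where 17.2% of all genes were called, 8.64% higher and 8.53% lower. Against 5 weeks, 6 of 10 were called, with Timp2, Timp3, Mmp11 and Mmp15 higher and Timp1 and Adamts2 lower, where 22.1% of all genes were called, 12.7% higher and 9.41% lower. The median log2 fold change of the 10 genes was 0.56 against 8 weeks and 0.68 against 5 weeks, beside 0.05 and 0.09 over all genes. The 10 genes and the wider lists below were chosen with earlier results of these data known, so these comparisons are descriptions. Called means an adjusted p under 0.05 in limma on log2(CPM + 1), where CPM is the count scaled to a library sum of 1e+06 and the set is a term of the model. Fold changes are on that scale, and both comparisons use the same 6 aged libraries. Without the columns of 5w replicate 3 and 8w replicate 3, 1 of the 10 genes, Timp1, was called against 8 weeks. Against 5 weeks 7 were called, with Mmp2 (1.11, limma adjusted p = 0.0328) besides the 6. Of all 12791 genes, 1521 and 2913 were called without these columns, beside 2196 and 2825 with them. Within the later set alone, Timp1 was the 1 gene called against 5 weeks and none of the 10 was called against 8 weeks, where 4.09% and 1.43% of all genes were called.

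**Figure D1:**
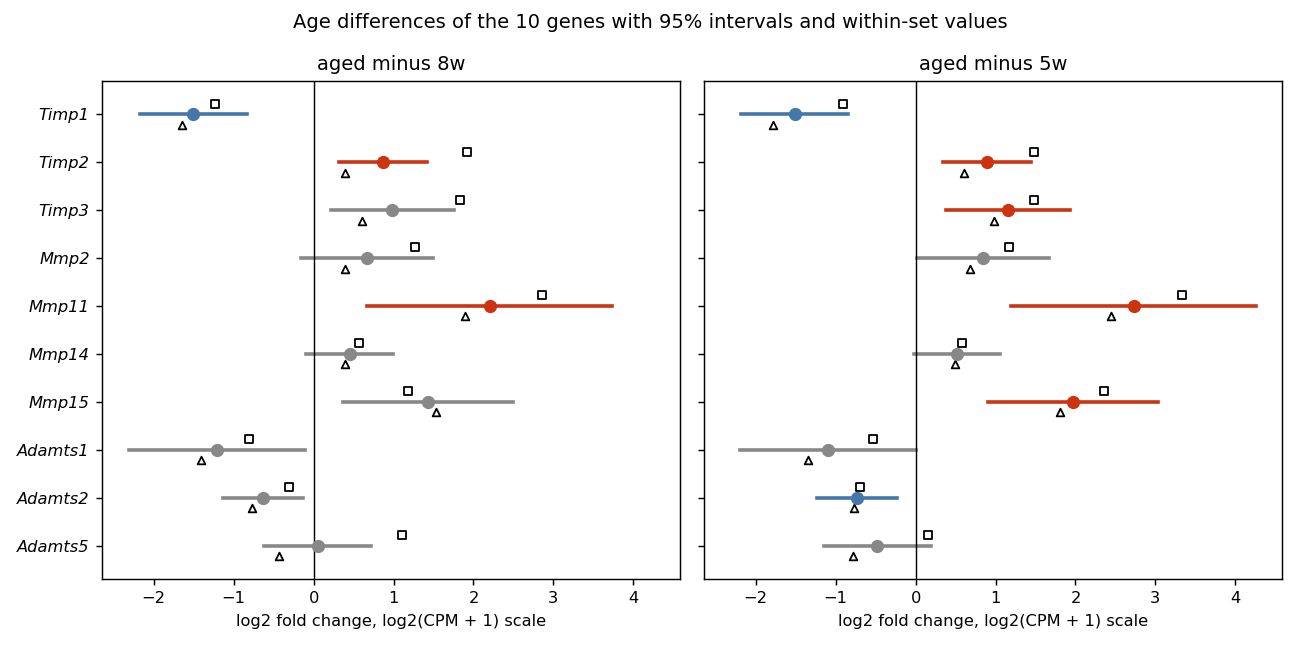
Log2 fold change of each of the 10 genes (x axis, log2(CPM + 1) scale) between aged and 8-week uteri (left) and between aged and 5-week uteri (right). Dots are estimates over 20 libraries with 95% intervals (red called higher, blue called lower, grey not called), and hollow squares and triangles are the differences within the earlier and the later set. Timp1 lies left of 0 in both panels and in both sets, and Mmp11 and Mmp15 lie right of 0 in both.

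Timp1, a secreted inhibitor that also acts as a growth signal, was the inhibitor that fell. Its level was 19.95 to 64.1 CPM at 5 weeks (median 28.7), 26.2 to 40.3 CPM at 8 weeks (median 32.2) and 3.35 to 32.2 CPM in aged uteri (median 10.5). Of the 6 aged libraries, 5 lay below every 8-week and every 5-week library, and the exception was aged replicate 5. The mean of 13.1 ± 9.84 CPM (SD, n = 6) in aged uteri stood against 33.4 ± 6.06 CPM (n = 7) at 8 weeks, a log2 fold change of -1.51 ± 0.32 (SE, limma adjusted p = 0.00375). Against 5 weeks the log2 fold change was also -1.51 ± 0.32 (limma adjusted p = 0.00275). The direction was the same in both sets: -1.23 in the earlier and -1.65 in the later set against 8 weeks, and -0.90 and -1.78 against 5 weeks. In the later set alone, the limma adjusted p against 8 weeks was 0.0735. In bulk tissue, fewer cells of a type and less RNA per cell cannot be told apart, here and for every gene that follows. The 14 cell cycle genes listed as markers fell with Timp1 in both comparisons, and their summed level was 171 to 765 CPM in aged, 643 to 3272 CPM in 8-week and 675 to 3021 CPM in 5-week libraries. Their part in the result was not tested.

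Timp2, which inhibits metalloproteinases and also takes part in the activation of the Mmp2 proenzyme at the cell surface, moved the other way. It was 175 to 500 CPM at 5 weeks (median 285), 195 to 504 CPM at 8 weeks (median 294) and 348 to 934 CPM in aged uteri (median 501). The groups overlapped, with 3 of 6 aged libraries above every young one. Its log2 fold change was 0.87 ± 0.26 against 8 weeks (limma adjusted p = 0.0291) and 0.90 ± 0.26 against 5 weeks (limma adjusted p = 0.0205). The 2 aged libraries of the earlier set, at 877 and 934 CPM, were the highest of all 20, and the difference from 8 weeks was 1.91 in that set and 0.40 in the later one. The test of that difference between the sets gave an adjusted p of 0.162 in limma. The call against 8 weeks was lost without aged replicate 1 (limma adjusted p = 0.0813), aged replicate 2 (0.0799), or 8w replicates 1 (0.0634), 2 (0.0827) or 3 (0.0563), and without both columns from files of another age group (0.0568). The call against 5 weeks was lost without aged replicate 1 (limma adjusted p = 0.0570) or aged replicate 2 (0.0583).

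Timp3, a TIMP that stays bound to the matrix and also inhibits ADAMTS enzymes, was called higher against 5 weeks. It was 12.6 to 101 CPM at 5 weeks (median 48.6), 29.9 to 110 CPM at 8 weeks (median 44.5) and 59.1 to 205 CPM in aged uteri (median 89.5). Every group overlapped, and 2 of 6 aged libraries, both of the earlier set, lay above every young one. The log2 fold change was 1.15 ± 0.37 against 5 weeks (limma adjusted p = 0.0310) and 0.99 ± 0.37 against 8 weeks (limma adjusted p = 0.0717). The first was lost when any of 6 libraries was left out: 5w replicates 2 (limma adjusted p = 0.0564), 6 (0.0589) or 7 (0.0611), or aged replicates 1 (0.0580), 2 (0.0838) or 4 (0.0574). The second passed without 8w replicate 7, the highest of its group (limma adjusted p = 0.0241), without 5w replicate 6 (0.0337), and, barely, without 5w replicate 4 (0.0499995). Of the exon length of Timp3, 21.3% is shared with Syn3 on the other strand. Strand settings are not given, so whether reads of that stretch were counted for Timp3 is not known. If they were not, its level per length is understated, since that divides by the full exon length.

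The makeup of the inhibitor RNA shifted with these levels. With each level divided by the length of the gene's exons, Timp1 made up 19.1% to 60.9% of the summed level of the 3 inhibitors at 5 weeks (median 23.2%), 19.5% to 37.4% at 8 weeks (median 31.5%) and 2.61% to 26.9% in aged uteri (median 6.64%). In 5 of 6 aged libraries the share was at most 8.17%, below every young library, and it was 26.9% in aged replicate 5. Timp2 held the largest share in 19 of 20 libraries and a median of 85.7% in aged uteri, and the exception was 5w replicate 6, where Timp1 held 60.9%. The ratio of the 3 inhibitors to the 7 proteases, in summed level per length, overlapped between the ages, with medians of 0.930 at 5 weeks, 0.816 at 8 weeks and 0.806 in aged uteri. These shares are a description with no test, and RNA shares are not shares of active protein.

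**Figure D2:**
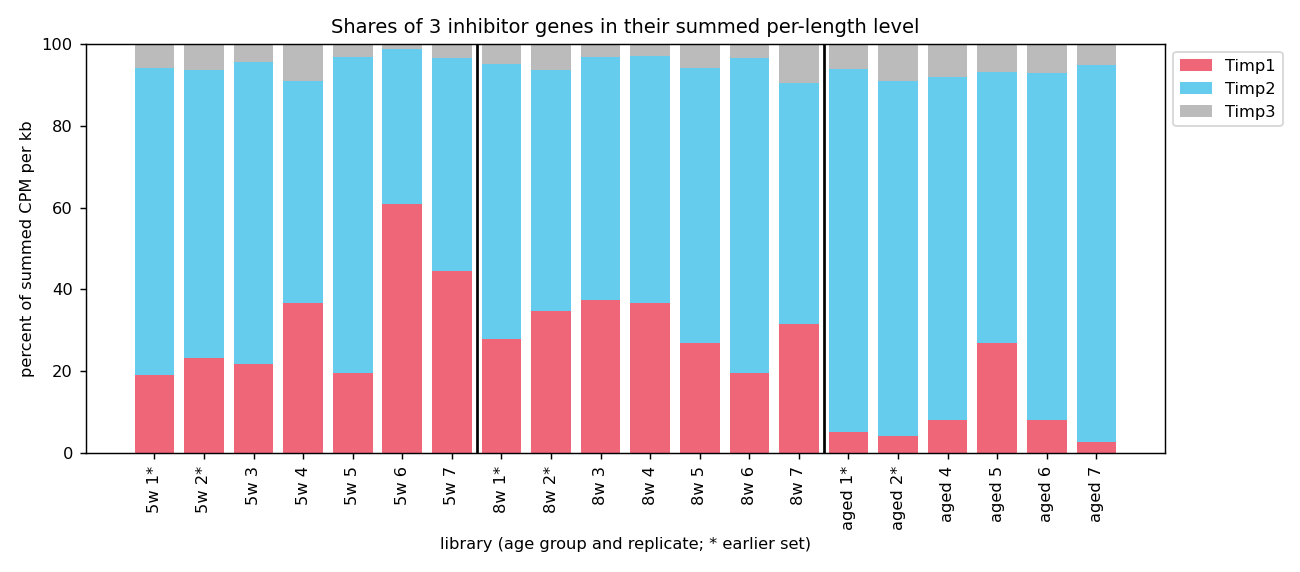
Share of Timp1, Timp2 and Timp3 in their summed level per kilobase of exon (y axis, percent) in each of the 20 libraries (x axis, * earlier set). The red Timp1 segment is 2.61% to 8.17% in 5 aged libraries, 26.9% in aged replicate 5 and at least 19.1% in every young library.

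Among the secreted metalloproteinases, Mmp11 had the largest fold changes of the 10 genes. Mmp11, also called stromelysin-3, is made by stromal cells and is released in an already active form. It was 8.78 to 107 CPM at 5 weeks (median 14.0), 13.5 to 124 CPM at 8 weeks (median 17.2) and 15.1 to 633 CPM in aged uteri (median 183). Aged libraries were widely spread: replicates 1, 4 and 6 held 319, 285 and 633 CPM, above every young library, whereas replicate 5 held 15.1 CPM, below the 8-week median. The log2 fold change was 2.73 ± 0.73 against 5 weeks (limma adjusted p = 0.0124) and 2.20 ± 0.73 against 8 weeks (limma adjusted p = 0.0450). It was positive in both sets, at 2.86 in the earlier and 1.90 in the later set against 8 weeks. The call against 5 weeks was kept when any 1 of the 20 libraries was left out.

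The call of Mmp11 against 8 weeks was close to the threshold. It was lost in 13 of the 20 fits that left out 1 library. Those were the fits without aged replicate 1 (limma adjusted p = 0.119), 2 (0.0617), 4 (0.0952) or 6 (0.108), without 8w replicate 1 (0.0729), 2 (0.0950), 3 (0.0851), 5 (0.0803) or 7 (0.0757), and without 5w replicate 1 (0.0543), 2 (0.0539), 4 (0.0513) or 7 (0.0540). Without both columns from files of another age group the limma adjusted p was 0.0632. The gene shares 5.58% of its exon length with Chchd10 on the other strand.

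Mmp2, the gelatinase that cuts denatured and type IV collagen, was not called in either comparison. It was 87.9 to 840 CPM at 5 weeks (median 200.4), 83.0 to 773 CPM at 8 weeks (median 299.96) and 254 to 886 CPM in aged uteri (median 261). Single libraries stood far above their groups, namely 5w replicate 3 at 840 CPM and 8w replicate 6 at 773 CPM, and the aged group was split between 4 libraries at 254 to 264 CPM and replicates 4 and 6 at 673 and 886 CPM. The log2 fold change was 0.84 (95% interval 0.02 to 1.67, limma adjusted p = 0.128) against 5 weeks and 0.67 (-0.16 to 1.49, limma adjusted p = 0.253) against 8 weeks. Without 5w replicate 3 the difference from 5 weeks was 1.11 and passed (limma adjusted p = 0.0270).

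The membrane-anchored metalloproteinases Mmp14 and Mmp15 differed in how far they moved. Mmp14, which sits on the cell surface and activates the Mmp2 proenzyme, was 111 to 296 CPM at 5 weeks (median 224), 129 to 277 CPM at 8 weeks (median 180) and 104 to 462 CPM in aged uteri (median 304). Of 6 aged libraries, 4 lay above every 8-week library, and aged replicate 5 was the lowest of all 20 libraries. Its log2 fold change was 0.45 (95% interval -0.09 to 0.99, limma adjusted p = 0.238) against 8 weeks and 0.52 (-0.02 to 1.06, limma adjusted p = 0.154) against 5 weeks. Without aged replicate 5 the differences were 0.70 (limma adjusted p = 0.0314) and 0.76 (limma adjusted p = 0.0161).

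Mmp15, a close relative of Mmp14 at the cell surface, was the gene with the fewest reads among the 10, down to 49 reads in 5w replicate 6. It was 1.90 to 24.2 CPM at 5 weeks (median 9.63), 3.42 to 36.5 CPM at 8 weeks (median 9.29) and 7.01 to 125 CPM in aged uteri (median 37.7). Aged replicates 1, 2 and 7, at 56.0, 125 and 120 CPM, lay above every young library, and the other 3 lay between 7.01 and 19.4 CPM. Replicates 1 and 2 are of the earlier set, in which Mmp15 was higher apart from age (later minus earlier -1.81 on the log2 scale). Young libraries of the later set reached 14.7 CPM at 5 weeks and 11.0 CPM at 8 weeks. The log2 fold change was 1.97 ± 0.51 against 5 weeks (limma adjusted p = 0.0101), with 2.36 in the earlier and 1.80 in the later set, and this call was kept when any 1 library was left out but not with no set term (limma adjusted p = 0.0604) or with columns attached by file (0.0583). Against 8 weeks it was 1.43 ± 0.51 and did not pass (limma adjusted p = 0.0575). It passed without aged replicate 5 (limma adjusted p = 0.0183) or 5w replicate 5 (0.0464).

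**Figure D3:**
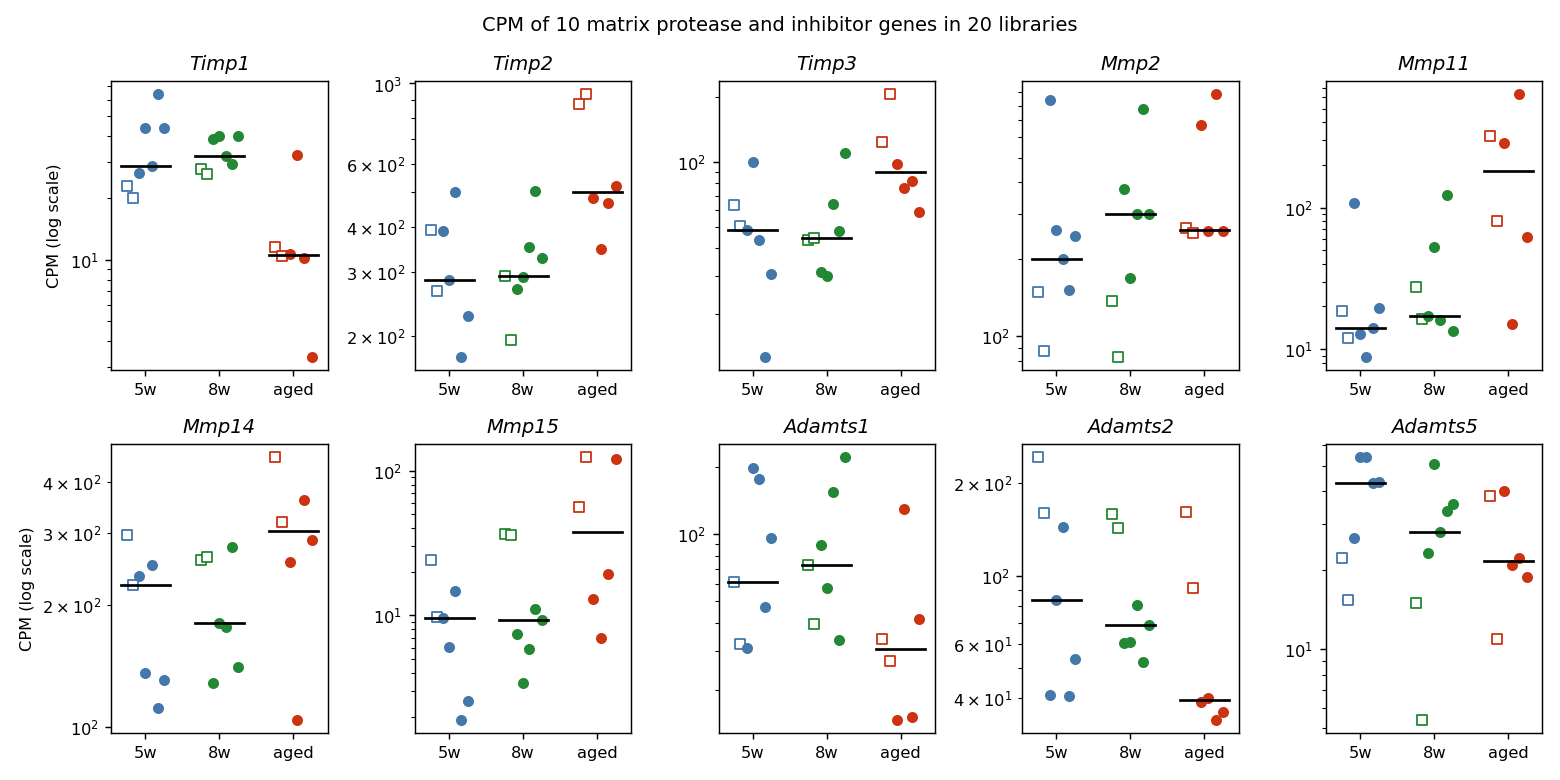
CPM (y axis, log scale) of each of the 10 genes in the 20 libraries by age group (x axis), with hollow squares for the earlier set, filled circles for the later set and a black line at the group median. For Timp1, 5 of 6 aged libraries lie below all young ones, and for Mmp11 and Mmp15 the aged libraries reach 633 and 125 CPM with low values among them.

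Of the ADAMTS proteases, Adamts2 was called lower in aged uteri against 5 weeks. Adamts2 removes the amino-terminal propeptide of fibrillar procollagens. It was 40.7 to 243 CPM at 5 weeks (median 83.5), 52.6 to 159 CPM at 8 weeks (median 69.2) and 34.1 to 161 CPM in aged uteri (median 39.5). The 4 aged libraries of the later set, at 34.1 to 40.2 CPM, lay below every young library, and the 2 of the earlier set, at 91.2 and 161 CPM, did not. The log2 fold change was -0.74 ± 0.24 against 5 weeks (limma adjusted p = 0.0329) and -0.63 ± 0.24 against 8 weeks (limma adjusted p = 0.0759). The first was lost without 5w replicate 1 (limma adjusted p = 0.0755) or 4 (0.0606) or aged replicates 2 (0.0772), 4 (0.0550), 6 (0.0623) or 7 (0.0547), and the second passed without 5w replicate 5 (0.0259).

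Adamts1 and Adamts5, which cut aggrecan and versican and lie 53059 bases apart on chromosome 16, were not called. Adamts1 was 30.8 to 198 CPM at 5 weeks (median 61.1), 33.4 to 223 CPM at 8 weeks (median 72.6) and 14.7 to 130 CPM in aged uteri (median 30.4). Of the aged libraries, 3 lay below every young one, and replicate 5 at 130 CPM lay above all but 4 young libraries. Its log2 fold change was -1.21 (95% interval -2.31 to -0.11, limma adjusted p = 0.120) against 8 weeks and -1.10 (-2.20 to 0.01, limma adjusted p = 0.140) against 5 weeks. Without aged replicate 5 it passed in both, at -1.59 (limma adjusted p = 0.0331) and -1.47 (limma adjusted p = 0.0397). Adamts5 was 15.4 to 54.1 CPM at 5 weeks (median 43.1), 5.39 to 50.6 CPM at 8 weeks (median 27.9) and 10.9 to 40.1 CPM in aged uteri (median 21.6), with wide overlap. Its log2 fold change was 0.05 (95% interval -0.62 to 0.72, limma adjusted p = 0.935) against 8 weeks and -0.48 (-1.15 to 0.19, limma adjusted p = 0.295) against 5 weeks. Without aged replicate 1 the latter was -0.79 and passed narrowly (limma adjusted p = 0.0499).

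Between 8 and 5 weeks none of the 10 genes was called, and 0% of all genes were. In that limma fit 139 of 12791 genes, and 0 of the 10, had an unadjusted p under 0.05. The largest differences among the 10 were those of Mmp15, at 0.53 (95% interval -0.49 to 1.55), Adamts5, at -0.53 (-1.17 to 0.11), and Mmp11, at 0.53 (-0.94 to 2.00). Timp1 differed by 0.00 (-0.65 to 0.64) and Timp2 by 0.03 (-0.50 to 0.55).

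The CPM ranges of the aged group and of each young group overlapped for all 10 genes, where 1.96% of genes did not overlap against 8 weeks and 3.08% against 5 weeks. Apart from age, 5 of the 10 genes differed between the sets: Mmp2 and Adamts5 were higher in the later set, by 1.25 and 1.07 on the log2 scale, and Mmp14 (-0.66), Mmp15 (-1.81) and Adamts2 (-1.50) were lower. Across all genes 58.7% differed between the sets. For none of the 10 did the age difference itself differ between the sets at an adjusted p under 0.05 in limma, where 0.0235% of all genes did for aged against 8 weeks and 0% against 5 weeks. With 2 earlier libraries of each age, this test can miss a difference, so it does not show that the sets agree. For Timp2 against 8 weeks, the later minus the earlier difference was -1.52 ± 0.48 (SE). Adamts5 against 8 weeks had opposite signs in the sets, with a log2 fold change of 1.10 in the earlier and -0.43 in the later set, and that difference had an adjusted p of 0.279 in limma.

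Levels per length showed which of the 10 genes carried the most RNA. At 8 weeks, Mmp2 had the highest median (89.0 CPM per kilobase), ahead of Timp2 (75.5), Timp1 (36.2), Mmp14 (30.2) and Adamts1 (13.7), and Mmp15 had the lowest (1.72). Mmp2 exceeded Timp2 in 3 of 7 libraries, so these neighbours are not ordered beyond their spread, whereas Timp2 exceeded Timp1 in 7 of 7. At 5 weeks, the order was Timp2 (73.1), Mmp2 (59.4), Mmp14 (37.5), Timp1 (32.3) and Adamts1 (11.5), then Adamts2 (8.95), Timp3 (5.97), Mmp11 (5.05), Adamts5 (4.00) and Mmp15 (1.78), and no neighbours were in the same order in all 7 libraries. In aged uteri, Timp2 led (128.6 CPM per kilobase), followed by Mmp2 (77.5), Mmp11 (65.7), Mmp14 (51.1), Timp1 (11.9), Timp3 (11.0), Mmp15 (6.99), Adamts1 (5.73), Adamts2 (4.24) and Adamts5 (2.01). Mmp11 thus had rank 3 by median in aged uteri and rank 7 at 8 weeks, though Mmp11 exceeded Mmp14 in only 3 of 6 aged libraries. Adamts2 exceeded Adamts5 in 6 of 6 aged libraries, and the other neighbours of that order were not ordered alike in all 6.

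High Mmp2 occurred in libraries of every age. It was highest in aged replicate 6 (886 CPM), 5w replicate 3 (840 CPM), 8w replicate 6 (773 CPM) and aged replicate 4 (673 CPM), all of the later set, in which Mmp2 was higher by 1.25 on the log2 scale. With each set centred on its mean of log2(CPM + 1), the same 4 led with 1.37, 1.30, 1.18 and 0.98, followed by aged replicates 1 (0.84) and 2 (0.78) of the earlier set. In these 4 libraries, picked out after their values were seen, Mmp11 was 633, 107, 124 and 285 CPM, in that order, and Adamts1 was 15.1, 30.8, 33.4 and 14.7 CPM. Plat, the tissue-type plasminogen activator, was 398, 497, 289 and 368 CPM in them, and was also high in aged replicates 2 (685 CPM) and 7 (299 CPM). Over the 20 libraries, with each set centred on its mean, the levels of Mmp2 and Mmp11 had a Pearson r of 0.81, those of Mmp11 and Adamts1 of -0.81, and those of Timp1 and Mmp15 of -0.85. These values are descriptions, since the libraries share age group and depth.

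**Figure D4:**
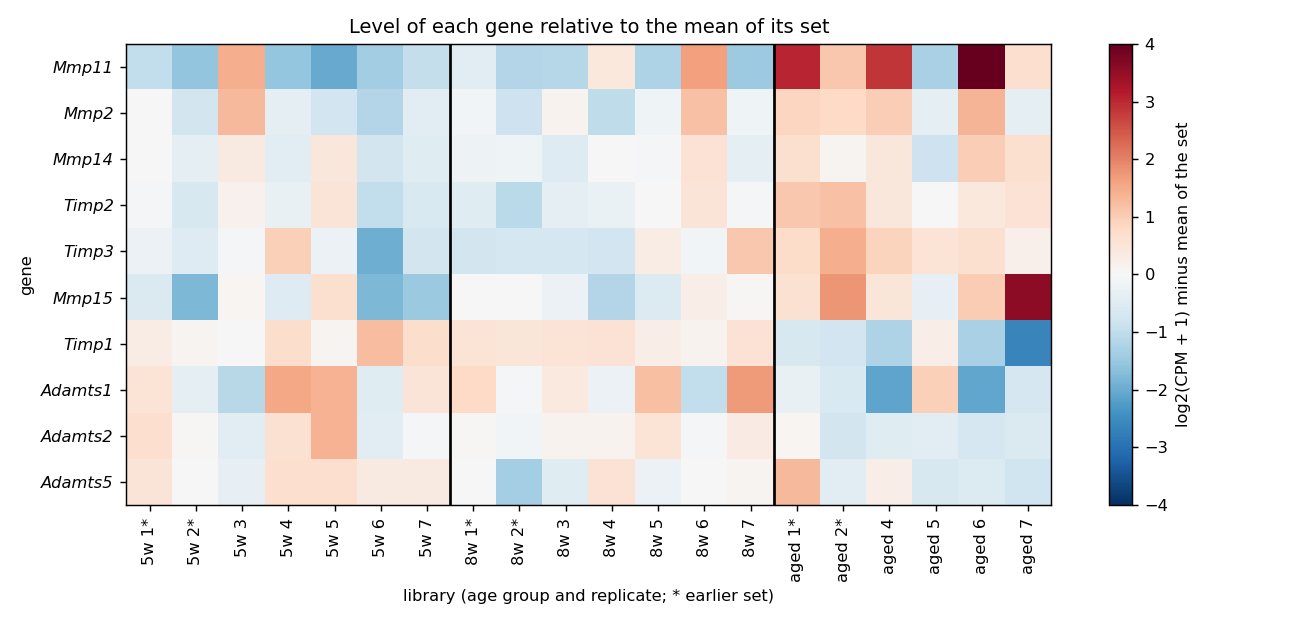
Level of each of the 10 genes (rows) in each library (columns, * earlier set) as log2(CPM + 1) minus the mean of the gene in that set, in color from -4 (blue) to 4 (red). Mmp11 and Mmp2 are red together in 5w replicate 3, 8w replicate 6 and aged replicates 4 and 6, where Adamts1 is blue, and, less far from 0 for Mmp2 (0.84 and 0.78) and Adamts1 (-0.29 and -0.61), in aged replicates 1 and 2, with Mmp11 at 3.06 and 1.07. Timp1 is blue in 5 of 6 aged libraries.

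Of the wider protease system, 76 genes besides the 10 were measured, out of 106 listed, in 10 lists. Against 8 weeks, 5 of the 76 were called higher and 10 lower (19.7% called, beside 17.2% of all genes), and against 5 weeks 9 were higher and 15 lower (31.6%, beside 22.1%). Within the later set alone, 2 of the 15 genes called against 8 weeks (A2m and Vcan) passed, where 1.43% of all genes did. Of the 24 called against 5 weeks, 2 (A2m and Adam12) passed, where 4.09% of all genes did. All 15 and all 24 had the same direction there. The later set holds 14 of the 20 libraries behind these calls, so neither the directions nor the shares passing are separate support. The median log2 fold changes of the 76, 0.01 and 0.04, lay near those of all genes. Of 15 matrix substrates, 4 were called lower against 8 weeks and 8 against 5 weeks, and none was called higher. Col3a1, the chain of type III collagen, was 1821 to 3527 CPM at 8 weeks and 508 to 2505 CPM in aged uteri (log2 fold change -1.15 ± 0.30, limma adjusted p = 0.0142). Vcan, the proteoglycan versican that ADAMTS enzymes cut, was 23.8 to 129 CPM at 8 weeks and 8.65 to 56.6 CPM in aged uteri (-1.71 ± 0.35, limma adjusted p = 0.00267). Col5a1 (-1.20) and Col4a1 (-0.77) were the other substrates called against 8 weeks. Against 5 weeks, Eln (-1.72), which encodes elastin, and Col1a1 (-1.15), Col1a2 (-0.89) and Col4a2 (-0.75) were called besides.

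Among the other ADAMTS and ADAM genes, some fell and a few rose. Adamts9 (-1.26), which cuts versican and aggrecan, and Adamts14 (-1.33), a procollagen trimming enzyme like Adamts2, were the 2 of 13 ADAMTS genes called lower against 8 weeks. Against 5 weeks, Adamts9 (-1.46), Adamts14 (-1.54) and Adamts15 (-0.995) joined Adamts2 among the lower, and Adamts10 (0.84) was higher. Adam12, a membrane-bound protease, was 24.4 to 82.9 CPM at 8 weeks and 8.20 to 26.9 CPM in aged uteri (log2 fold change -1.83 ± 0.34, limma adjusted p = 0.00142). Adam17, which sheds growth factors and cytokines from the cell surface, was lower by less (-0.45 against 8 weeks), and Adam33 was higher against 5 weeks (1.28). Adamts10 and Col4a2 lie outside the largest 20 changes against 5 weeks and were named after their values were seen.

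Among the genes for activation and clearance of metalloproteinases, A2m, a broad plasma protease inhibitor, was 81.6 to 345 CPM at 8 weeks and 11.8 to 102 CPM in aged uteri (-2.40 ± 0.41, limma adjusted p = 0.000801). Thbs2, a matrix protein that binds Mmp2 for uptake, rose (1.28 against 8 weeks, 1.42 against 5 weeks), and so did Cldn1 (1.72 and 1.53), a tight junction protein. The serine proteases Htra3 (1.35) and Dpp4 (1.47) rose against 8 weeks, and Htra1 (-0.72) fell. Against 5 weeks alone, Plat (2.36), Mmp7 (1.96), an epithelial metalloproteinase, and Thbs1 (1.14) were called higher, and whether their age differences depend on the young group was not tested. Adamtsl5 (0.61), a protein related to ADAMTS without protease activity, was called higher against 8 weeks. In the later set alone, the differences from 8 weeks were 0.26 for Adamtsl5 (limma adjusted p = 0.554), 1.17 for Thbs2 (0.378), 1.24 for Htra3 (0.135) and 1.08 for Dpp4 (0.189). Cldn1 did not pass against 8 weeks in the later set alone either. Of the TIMP list, Timp4 was not among the genes measured, and Reck, a membrane inhibitor, differed by -0.22 (limma adjusted p = 0.570) against 8 weeks and -0.24 (limma adjusted p = 0.495) against 5 weeks.

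**Figure D5:**
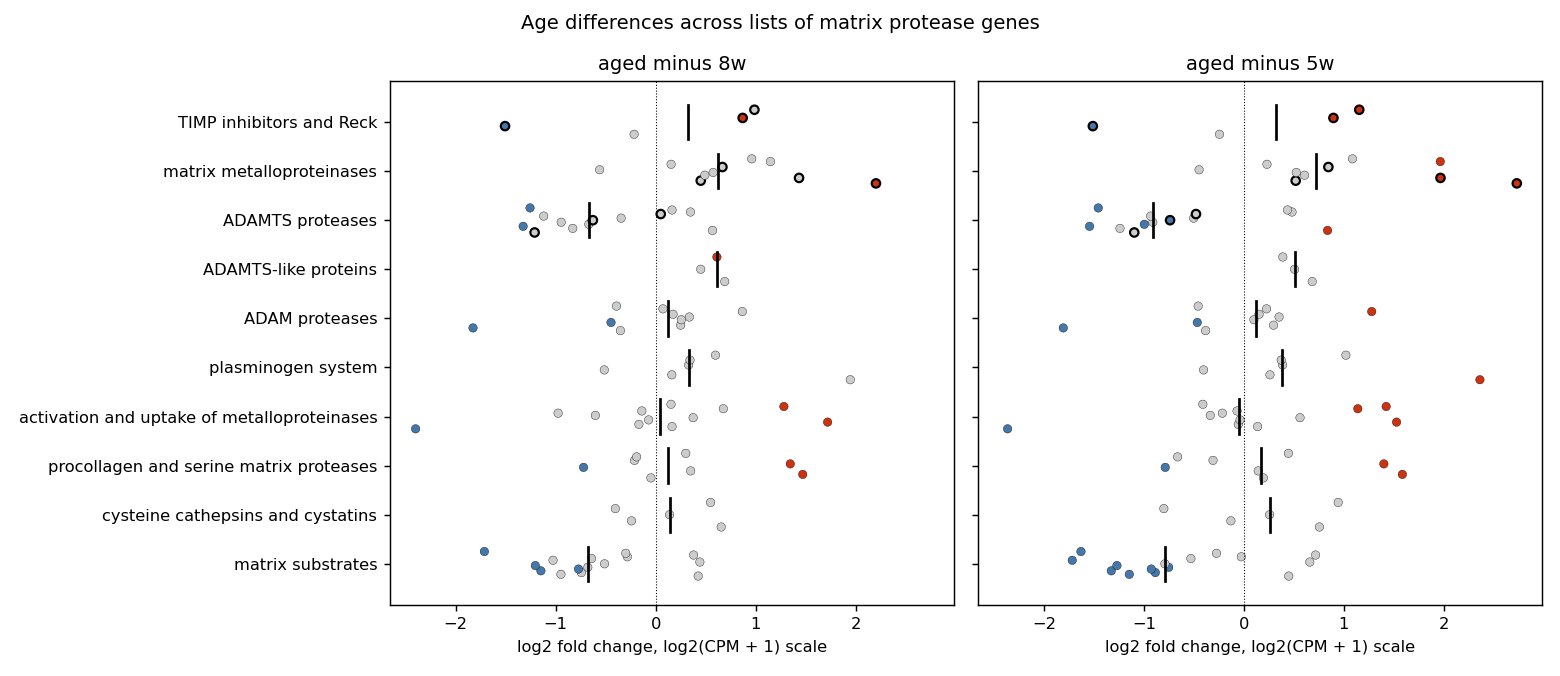
Log2 fold change (x axis, log2(CPM + 1) scale) of every measured gene of 10 protease system lists (rows) for aged against 8 weeks (left) and aged against 5 weeks (right), red for called higher, blue for called lower and grey for not called. Thick outlines mark the 10 genes described here and black lines the list medians; the matrix substrates have medians of -0.68 and -0.79 and the metalloproteinases of 0.62 and 0.73.

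Markers of the main cell types are given beside the shares of all genes called, 17.2% against 8 weeks and 22.1% against 5 weeks. Of 12 stromal markers 1 was called lower against 8 weeks and 0 against 5 weeks, and of 10 smooth muscle markers 0 and 2 were called higher. Of 12 epithelial markers, 2 were called higher in each comparison and 1 lower against 5 weeks. The summed stromal markers were 3973 to 8734 CPM in aged, 2445 to 8311 CPM in 8-week and 2534 to 7296 CPM in 5-week libraries. Of all 20 libraries, aged replicate 5 had the highest stromal (8734 CPM) and smooth muscle (28983 CPM) sums. Its epithelial sum (1911 CPM) was the lowest. The same library was the exception for Timp1. Of 9 macrophage markers measured, 1 was called higher against 8 weeks and 2 against 5 weeks, and their sum was 865 to 2924 CPM in aged, 362 to 3308 CPM in 8-week and 444 to 1603 CPM in 5-week libraries. Of 10 endothelial markers, 1 and 2 were called higher, and of 3 adipocyte markers measured, Lipe was called higher in both comparisons. Of 11 estrogen-responsive genes measured, 1 was called higher and 2 lower in each comparison. Their sum was 4982 to 37314 CPM in aged, 4190 to 17947 CPM in 8-week and 2074 to 16549 CPM in 5-week libraries. It was highest in aged replicates 1 (37314 CPM) and 2 (21120 CPM). The part of these cells and of the hormone response in the results was not tested.

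Among all genes, those whose level over the 20 libraries was most like that of Timp1, with each set centred, included Copb1 (Pearson r = 0.93) and Scfd1 (0.92). For Timp2 they were Mapk8ip1 (0.97), Rasd2 (0.95) and Tnxb (0.95), and for Timp3 Dhx57 (0.93), Acox3 (0.92) and Thbd (0.92). For Mmp11 they were Aph1c (0.95), Adssl1 (0.94) and Angptl2 (0.93), and for Mmp15 Cbarp (0.97), Mllt6 (0.95) and Zfp219 (0.95). Adamts2 was most like Col1a2 (0.91), Mamstr (0.88) and Col4a1 (0.87), so its nearest genes included 2 collagen chains. These correlations describe the libraries and share their age groups and depth.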

How the data were processed

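Uterus RNA was sequenced after library preparation with NEBNext Ultra, per the labels' protocols. The deposited tables hold CPM that the authors scaled to a sum of 1e+06 per library. GRCm38, STAR, fastp, featureCounts and edgeR are named in the submitters' processing notes, and strand settings and versions are not given in the sources used here. Of 21 files, 20 held values. Columns were assigned by header, which for 15 of 20 names another sample than the file does, and aged replicate 3, with no column, was not analysed here. The least count of a gene in any library was 10 reads, so genes silent in a library are not in the tables. No libraries of 1 group and set were near-copies (chi-square per degree of freedom at least 30.9 over 29 pairs).

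The values were tested as log2(CPM + 1) with limma 3.58.1 in R 4.3.3 (age group plus set, moderated with a mean-variance trend, Benjamini-Hochberg over 12791 genes, threshold 0.05), and the script was tested on simulated data. Levels per length divide CPM by the union of GENCODE exons (12767 genes matched, 24 not). The genes and lists were chosen with earlier results of these data known. Named genes are the 10, listed pathway genes that were called (at most 20 per comparison, by size), and the 3 genes most correlated with each of the 10 that was called, of which 1 is not reported here. Alternatives were other pseudocounts, a mean CPM of at least 5, quantile normalization, median centring, no set term, each set alone, the replicate number as a block, columns attached by file, each library left out and, added after seeing the data, vooma weights and leaving out both columns from files of another age group.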

Additional observations from a re-analysis of the deposited data

Results flagged for a closer look

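Of 30 combinations of gene and age group, 7 had 1 library set apart from the rest of its group by a gap that is large for the range of the group, where chance gives about 1 in 20 if values are normally distributed. That was not tested for these CPM values, and in all 7 the highest library stood apart. The rule was not run on the other genes, so whether 7 of 30 is many for these data is not known. Timp1 in aged replicate 5 was 32.2 CPM, and the next highest aged library was 11.5 CPM. Adamts1 in the same library was 130 CPM, and the next was 41.5 CPM. Mmp2 was 840 CPM in 5w replicate 3 (next 260 CPM) and 773 CPM in 8w replicate 6 (next 379 CPM). Mmp11 was 107 CPM in 5w replicate 3 (next 19.5 CPM) and 124 CPM in 8w replicate 6 (next 52.3 CPM). Timp3 was 110 CPM in 8w replicate 7 (next 64.2 CPM). These 4 libraries are the ones behind all of the gaps, and the column of 5w replicate 3 is one of the 2 that lay in a file of another age group.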

How the results depend on the processing

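Timp1 was lower in aged uteri under every setting run, and its call was lost only in the later set alone against 8 weeks (-1.65, limma adjusted p = 0.0735). The number of the 10 genes called against 8 weeks, 3 with both sets, was 6 with median centring, 1 with no set term, 0 in the later set alone, 5 in the earlier set alone, 1 with columns attached by file and 1 without the columns from files of another age group. Against 5 weeks it was 6, and became 3 with no set term and 1 in the later set alone. All genes called numbered 2196 against 8 weeks, and 969 with no set term, 183 in the later set and 3613 in the earlier set. They numbered 565 with columns attached by file and 1521 without the columns from files of another age group. Against 5 weeks they numbered 2825, and 1380 with no set term, 523 in the later set and 2913 without the columns from files of another age group. Each set alone has fewer libraries, and the cause of these shifts was not tested.

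With 1 library left out, 1 to 6 of the 10 were called against 8 weeks and 3 to 8 against 5 weeks. The count against 8 weeks was 1 without 8w replicate 1, 2 or 3 or aged replicate 1 or 2, 5 without 5w replicate 5 and 6 without aged replicate 5, and the count against 5 weeks was 3 without aged replicate 2. All genes called ranged from 1309 to 2617 and from 1982 to 3294, with the lowest, against 8 weeks, without aged replicate 1 (1309), 8w replicate 2 (1358) or 8w replicate 1 (1454). Genes whose age difference differed between the sets numbered 0 to 49 against 8 weeks (49 without aged replicate 5) and 0 to 14 against 5 weeks.

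Among the calls, Timp2 and Mmp11 against 8 weeks were lost with no set term (limma adjusted p = 0.0571 and 0.0743), with columns attached by file (0.121 and 0.0786) and in the later set (0.549 and 0.397), and Mmp11 with quantile normalization (0.0502). Against 5 weeks, Timp3 and Adamts2 were lost with no set term (0.0575 and 0.377) and by file (0.0543 and 0.0776), and Adamts2 also in the earlier set (0.150).

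Directions that turned were all of genes not called. For Adamts5 against 8 weeks (0.05) the value was -0.10 with quantile normalization, -0.000567 with no set term, -0.43 in the later set, -0.0276 with the replicate block, -0.0120 by file and -0.0321 with vooma weights, and -0.26 to 0.19 with 1 library left out. Against 5 weeks it was 0.15 in the earlier set. Between 8 and 5 weeks, Timp2 was -0.0143 with quantile normalization, -0.0107 with median centring and -0.43 in the earlier set, Timp1 0.32, Timp3 -0.36 and Mmp2 -0.10 in the earlier set, Adamts2 0.000931 in the later set, and Adamts1 -0.12 by file and -0.12 without the columns from files of another age group. With 1 library left out, those differences ranged from -0.0818 to 0.135 for Timp1, -0.10 to 0.18 for Timp2, -0.10 to 0.39 for Timp3, -0.0444 to 0.451 for Mmp2, -0.0502 to 0.172 for Mmp14, -0.12 to 0.35 for Adamts1 and -0.225 to 0.0819 for Adamts2.

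Whether the replicate numbers pair the libraries cannot be told from these values, since pairs with different numbers were not compared. The deviations of same-numbered libraries of different ages had r over 0.1 in 6 of 13 pairs of the later set (-0.505 to 0.279). In the earlier set, with 2 libraries a group, both numbers give the same r by construction, and it was over 0.1 in 2 of 3 age pairs. With the replicate block, 1637 and 2413 genes and 4 and 6 of the 10 were called against 8 and 5 weeks, with Timp2 against 8 weeks (limma adjusted p = 0.0601) and Timp3 against 5 weeks (0.0606) lost, and Adamts1 (0.0353 and 0.0401) and, against 8 weeks, Adamts2 (0.0348) gained. The edgeR and DESeq2 alternatives were not run.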
